A study of Homo sapiens with 14 samples.

Results

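The genes described here are 10 neuronal cytoskeleton and neurite genes, chosen by symbol: the neurofilament genes NEFL, NEFM and NEFH, the related filament genes INA and PRPH, the microtubule-associated protein genes MAP2, MAPT and DCX, the stathmin gene STMN2 and the growth cone gene GAP43. NEFL was not analysed here. The other 9 genes were listed in both count tables, among 17810 and 19143 genes, and all 9 were among the 13803 and 14470 genes that passed the filter on low counts.

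RNA depleted of ribosomal RNA was sequenced in CHP134, an established human neuroblastoma cell line that carries many copies of MYCN, in 14 libraries described as biological replicates. In the first experiment, EGFP cells (n = 3) and OmoMYC cells (n = 3) carried a lentiviral doxycycline-inducible vector and had been selected with an antibiotic, and both received 1 µg/ml doxycycline for 3 days in tetracycline-approved serum. EGFP is a fluorescent control protein, and OmoMYC (OMOMYC in the labels) is a mutated fragment of MYC that dimerises with MYC proteins or with itself and occupies their DNA sites. The 2 lines were engineered separately, so a difference between them cannot be told apart from a difference between lines. In the second experiment, parental CHP134 cells without a vector were kept in ordinary serum and received the solvent DMSO (n = 4) or 500 nM dTAG47 (n = 4) for 18 h. The molecule dTAG47 directs proteins fused to an engineered FKBP12 tag to degradation, and these parental cells carried no tagged protein, so this comparison measured the compound alone.

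Neurofilament subunits, together with alpha-internexin (INA) and peripherin (PRPH), assemble into the intermediate filaments that fill axons and set their calibre. MAP2 and tau (MAPT) bind and stabilise microtubules, MAP2 mainly in dendrites and the cell body and tau mainly in axons, and doublecortin (DCX) binds microtubules in migrating and immature neurons. Stathmins bind tubulin dimers, STMN2 being the neuronal form found in growing axons, and GAP43 is a membrane-bound growth cone protein. Neuroblastoma arises from sympathoadrenal precursors, and expression of such genes is commonly read as a sign of neuronal differentiation in its cell lines.

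The 250 bases before the start are shown for 3 of these genes that moved by different amounts in OmoMYC cells. They were searched for the canonical E-box CACGTG, the site that MYC proteins and OmoMYC bind best. The sequences are RefSeq entries on GRCh38.p14, on the plus strand, at chr10:103276888-103277137 for INA, chr12:49294897-49295146 for PRPH and chr3:115623260-115623509 for GAP43, and capitals mark TATAAA.
INA: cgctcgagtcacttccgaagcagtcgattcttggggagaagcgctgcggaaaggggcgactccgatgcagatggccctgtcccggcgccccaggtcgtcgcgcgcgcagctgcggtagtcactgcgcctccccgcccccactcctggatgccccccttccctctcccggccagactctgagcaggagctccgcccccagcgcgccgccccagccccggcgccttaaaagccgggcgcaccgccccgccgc
PRPH: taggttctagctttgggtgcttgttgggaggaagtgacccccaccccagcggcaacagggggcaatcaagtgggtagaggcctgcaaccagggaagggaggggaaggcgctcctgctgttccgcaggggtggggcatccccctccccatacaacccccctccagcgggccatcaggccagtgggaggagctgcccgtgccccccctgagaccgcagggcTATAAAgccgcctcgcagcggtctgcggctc
GAP43: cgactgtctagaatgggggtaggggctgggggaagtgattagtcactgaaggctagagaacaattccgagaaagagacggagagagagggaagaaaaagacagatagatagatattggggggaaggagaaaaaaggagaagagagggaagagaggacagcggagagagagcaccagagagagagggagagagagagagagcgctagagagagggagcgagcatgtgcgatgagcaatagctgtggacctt
The INA window was 72.8% G and C with 30 CpG dinucleotides, the PRPH window 66.8% with 10, and the GAP43 window 51.6% with 7. RefSeq windows were searched for 5 members only (INA, PRPH, MAP2, DCX and GAP43). These gave 9 windows in all, since MAP2 and DCX each have several starts. The other members were not searched, so the counts below say nothing about them. CACGTG, which reads the same on both strands, was in 0 of these 9 windows, against 6.34% of the 35116 promoter windows of this length. TATAAA, searched on both strands, was in 2 of the 9 (PRPH and 1 start of DCX), against 10.7% of all windows, and the PRPH copy began 31 bases before the start. A match or its absence describes these letters in these windows only.

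The EGFP and OmoMYC libraries held 28060817 to 38358128 counts, and the DMSO and dTAG47 libraries 40861430 to 53451641. Counts-per-million (CPM) values of MYC, where reads of the OmoMYC insert fall, were 0.568 to 0.689 in EGFP and 513 to 527 in OmoMYC libraries, so the insert was read in the OmoMYC libraries and not in the EGFP libraries. The EGFP insert itself was not measured. MYCN was at 2408 to 2900 CPM in EGFP and 2182 to 2312 CPM in OmoMYC libraries. It was called lower in OmoMYC cells with no overlap (log2 fold change -0.28 ± 0.07 SE, adjusted p = 0.0103, edgeR's quasi-likelihood test). Summed adrenergic neuroblast markers, the class to which the line belongs, were at 1523 to 1800 CPM in EGFP and 1695 to 1778 CPM in OmoMYC libraries, although the defining enzyme genes TH and DBH averaged only 0.238 and 0.405 CPM in EGFP cells. In bulk libraries, fewer cells that express a gene and less of its RNA per cell cannot be told apart.

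Among the intermediate filament genes, the 3 genes NEFM, INA and PRPH rose in OmoMYC cells and NEFH did not pass the test. PRPH, whose product forms filaments in peripheral and autonomic neurons, was at 63.0, 66.8 and 71.7 CPM in EGFP libraries and at 145, 144 and 152 CPM in OmoMYC libraries. It rose 2.19-fold (log2 fold change 1.13 ± 0.07 SE, adjusted p = 1.13e-06, edgeR's quasi-likelihood test, n = 3 per group). The lowest OmoMYC library of PRPH was well above the highest EGFP library. NEFM, the medium neurofilament subunit, was at 59.1, 49.7 and 57.0 CPM in EGFP libraries and at 87.1, 83.2 and 88.9 CPM in OmoMYC libraries. It rose by 0.64 ± 0.08 log2 units (SE, adjusted p = 0.000123, edgeR), with no overlap between the groups. INA, whose product co-assembles with neurofilaments in early neurons, was at 154, 154 and 157 CPM in EGFP libraries and at 209, 211 and 208 CPM in OmoMYC libraries. The rise was smaller, 0.44 ± 0.06 (SE, adjusted p = 0.000198, edgeR), but the replicates lay close together and the groups were clearly apart. INA shares 452 exonic bases with the antisense gene NT5C2, which rose as well (log2 fold change 0.47, adjusted p = 0.0128, edgeR) at a mean of 9.01 CPM in EGFP and 12.5 CPM in OmoMYC cells. PRPH shares 1872 of its 2618 exonic bases with the antisense noncoding RNA gene TROAP-AS1. NEFM shares 960, NEFH 343 and MAPT 75 with other antisense noncoding RNA genes. These noncoding genes were not among the genes listed. For all these members, reads on the shared bases cannot be assigned without the strand setting.

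NEFH, the heavy neurofilament subunit, was at 183, 199 and 229 CPM in EGFP libraries and at 207, 194 and 235 CPM in OmoMYC libraries. The groups overlapped, and the log2 fold change was 0.06 (95% interval -0.15 to 0.27, adjusted p = 0.628, edgeR). This interval leaves room for a rise of 0.27 but does not reach the size measured for the other 3 filament genes.

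**Figure D1:**
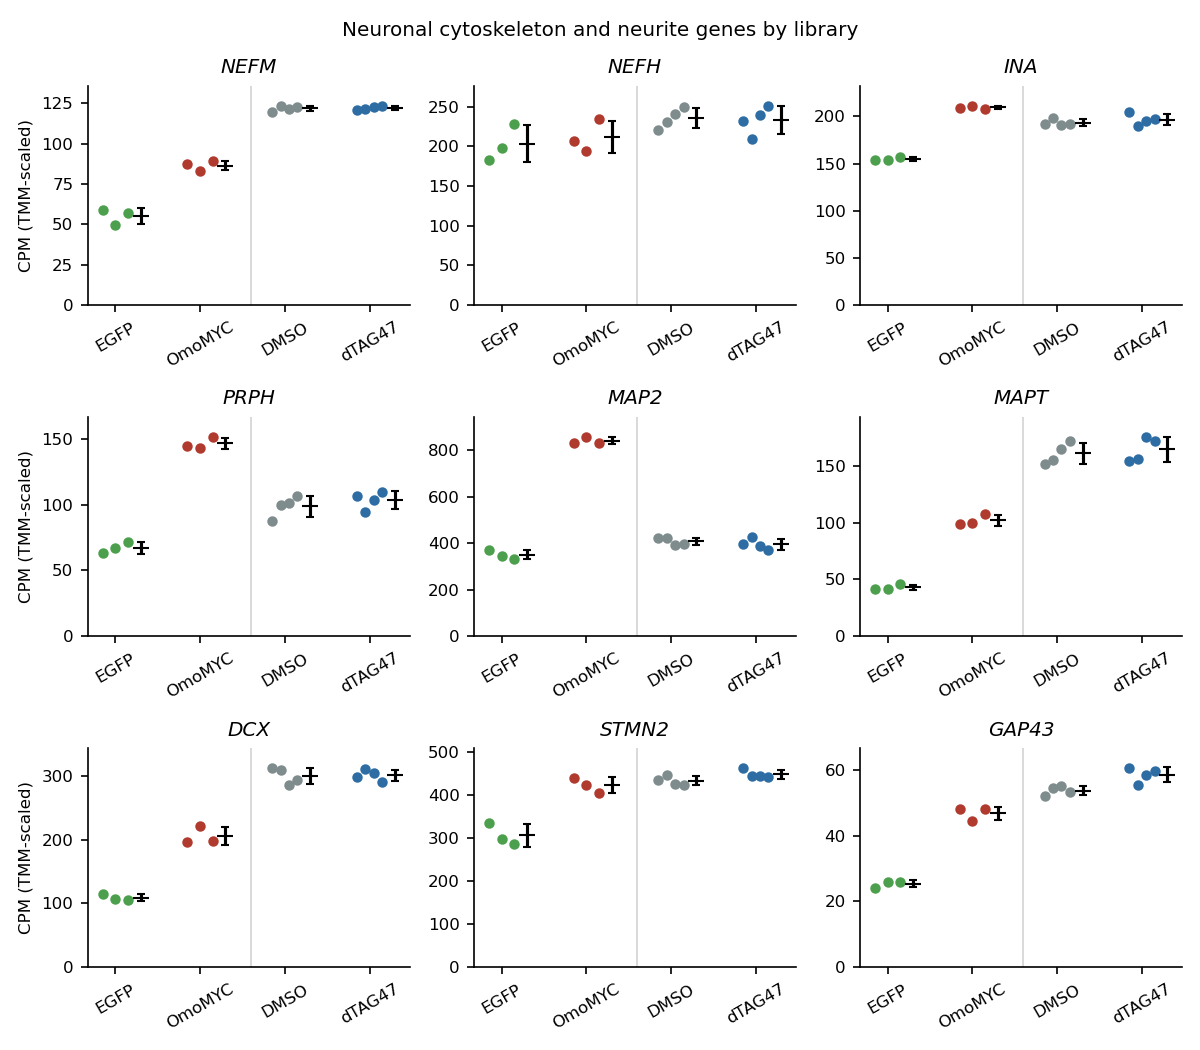
Level of each gene in each of the 14 libraries, as CPM on the vertical axis from 0, with 1 panel per gene and the groups EGFP, OmoMYC, DMSO and dTAG47 along the horizontal axis. Each point is a library, and the black mark beside it gives the group mean ± SD. EGFP and OmoMYC points are apart for every gene shown except NEFH, while DMSO and dTAG47 points overlap for every gene except GAP43, and levels of the first 2 and last 2 groups come from separately scaled tables.

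The share of each filament gene in their summed level was then compared, in a design where 3 against 3 libraries cannot reach a p under 0.05 by the exact test. Per kilobase of exon, PRPH was 18.1% ± 0.349 (SD, n = 3) of the summed NEFM, NEFH, INA and PRPH signal in EGFP cells and 28.0% ± 0.232 (SD, n = 3) in OmoMYC cells. The share of NEFH went from 37.7% ± 2.10 (SD, n = 3) to 27.9% ± 1.65 (SD, n = 3). For PRPH and NEFH the libraries did not overlap, and the exact two-sided permutation p was 0.1 for each, the smallest that 3 against 3 allows (0.4 after Benjamini-Hochberg adjustment over 8 tests). INA went from 33.6% to 32.2% (exact permutation p = 0.4) and NEFM from 10.7% to 11.9% (exact permutation p = 0.3), with overlapping libraries for both genes. The shares add to a fixed total and are not independent of each other. The antisense overlaps given above apply to each of these genes.

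**Figure D2:**
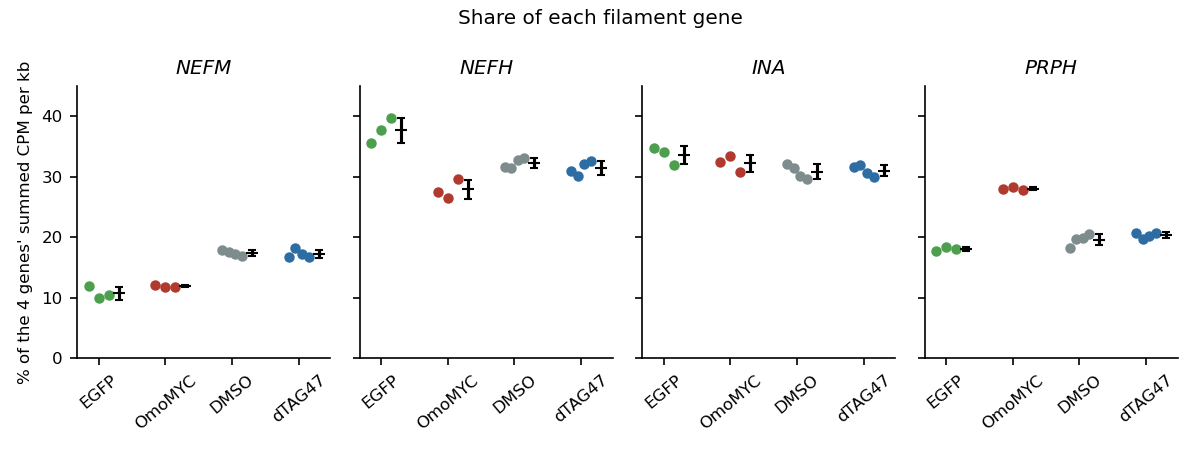
Share of each of the 4 intermediate filament genes in their summed CPM per kilobase of exon (vertical axis, percent) by group, where points are libraries and black marks the mean ± SD. PRPH is at a mean of 18.1% in EGFP and 28.0% in OmoMYC cells and NEFH at 37.7% and 27.9%, and NEFL is not in the sum.

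The 3 microtubule-associated protein genes rose in OmoMYC cells, and 2 of them, MAP2 and MAPT, had the largest changes of the 9 members in the main test. MAP2 was at 371, 345 and 334 CPM in EGFP libraries and at 832, 857 and 830 CPM in OmoMYC libraries. It rose 2.40-fold (log2 fold change 1.26 ± 0.06 SE, adjusted p = 1.43e-07, edgeR). The groups of MAP2 were far apart, and the spread within each was small beside the difference between them. MAPT was at 41.8, 41.5 and 45.8 CPM in EGFP libraries and at 99.0, 99.6 and 108 CPM in OmoMYC libraries. It rose 2.37-fold (log2 fold change 1.25 ± 0.08 SE, adjusted p = 6.84e-07, edgeR), again with no overlap. DCX was at 115, 107 and 105 CPM in EGFP libraries and at 197, 222 and 199 CPM in OmoMYC libraries. DCX rose 1.89-fold, or 0.92 ± 0.07 log2 units (SE, adjusted p = 5.78e-06, edgeR), and the groups were apart.

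STMN2 and GAP43, which act at growing axon tips, also rose. GAP43 was at 24.1, 25.9 and 26.0 CPM in EGFP libraries and at 48.0, 44.6 and 48.0 CPM in OmoMYC libraries. It rose 1.85-fold (log2 fold change 0.89 ± 0.08 SE, adjusted p = 1.03e-05, edgeR) with no overlap. STMN2 was at 336, 297 and 286 CPM in EGFP libraries and at 440, 424 and 405 CPM in OmoMYC libraries. It had the more modest change of these 2, 1.38-fold (log2 fold change 0.47 ± 0.07 SE, adjusted p = 0.000504, edgeR), and the groups did not overlap.

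In total 8 of the 9 genes passed the test and all 8 were higher in OmoMYC cells, the same 8 whose libraries did not overlap. Of all 13803 tested genes 53% were called, 27.3% higher and 25.7% lower, and 32% had all OmoMYC libraries above and 30.3% below all EGFP libraries. The median log2 fold change of the 9 genes was 0.89, against 0.01 over all tested genes, whose 75th and 95th percentiles were 0.35 and 1.23. MAP2, MAPT and PRPH were exceeded by 4.78%, 4.88% and 5.64% of tested genes, STMN2 and INA by 19.0% and 20.2%, and NEFH by 46.1%.

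**Figure D3:**
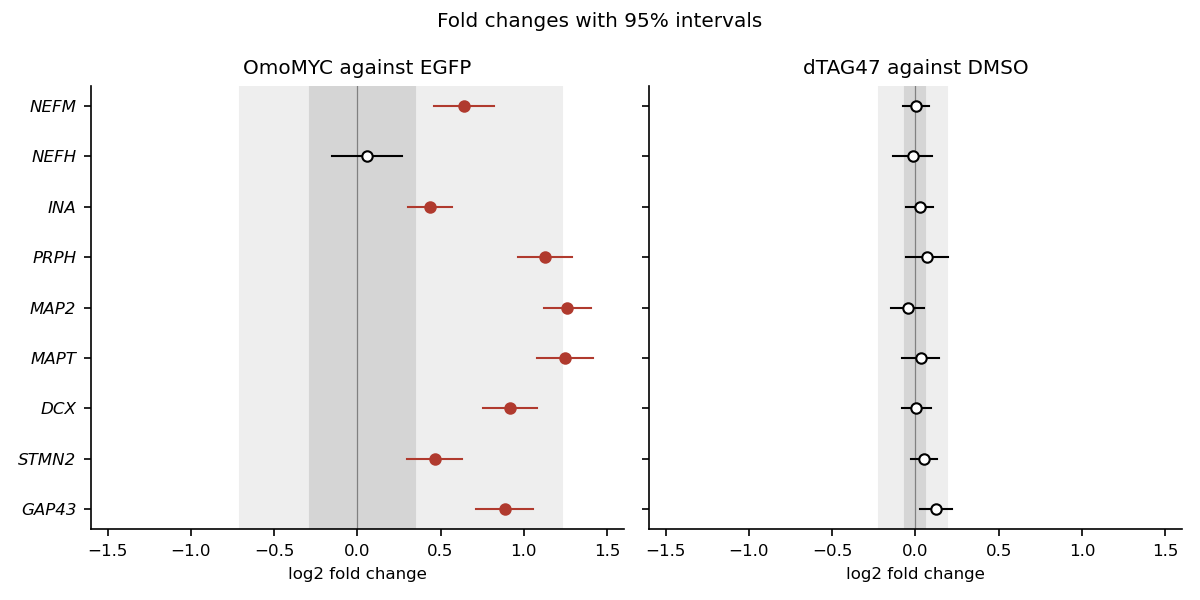
Log2 fold change of each gene with its 95% interval (horizontal axis, log2 units) for OmoMYC against EGFP (left) and dTAG47 against DMSO (right), where filled points passed the test and the gray bands span the 5th to 95th and 25th to 75th percentiles of all tested genes. All OmoMYC intervals except that of NEFH lie above 0. Their points run from 0.44 for INA to 1.26 for MAP2, while the dTAG47 points lie between -0.05 and 0.12.

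Members differ in base composition and length. Exonic GC content ran from 42.0% in STMN2 and 42.5% in MAP2 and DCX to 64.0% in PRPH, and gene span from 3540 bases in PRPH to 310101 in MAP2. With a correction for GC content, exon length and span in each library, an alternative added after seeing the data, the same 8 genes stayed higher, at 0.43 (INA) to 1.26 (MAP2), PRPH falling to 0.82 and STMN2 rising to 0.84. MAPT fell to 0.96, below DCX (1.07) and GAP43 (1.03), so its rank among the members depends on this correction. NEFH then had a log2 fold change of -0.19 and was called lower (adjusted p = 0.00102, edgeR), so its direction depends on this correction.

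Across the 14 libraries, with each table centred on its own mean, the 28 pairs among the 8 genes other than NEFH had Pearson r of 0.89 to 0.99, and the 8 pairs with NEFH had r of -0.05 to 0.36. These values mostly carry the single step between EGFP and OmoMYC cells and the libraries they share. By the same measure the gene most like DCX was MAP2 (r = 0.99), the gene most like GAP43 was DPYSL2 (r = 0.99), a collapsin response mediator of growth cones, and the gene most like MAPT was KLC3 (1.00), a kinesin light chain. MAP2 was most like FAM13B and GPR155 (both 1.00), STMN2 like TSPAN7 and KLHL13 (both 0.98), NEFM like C4orf50 (0.99) and C1orf111 (0.98), and PRPH like PYGB and POMGNT1 (both 0.99). INA was most like RIMKLA (0.99) and MYC (0.99), the latter holding reads of the insert, and NEFH most like RANGAP1 (0.95) and TNIP2 (0.94). The second gene for DCX was PEX5L (0.99), for GAP43 B4GALT5 (0.99) and for MAPT PTPRN2 (1.00).

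Other genes of the same structures, in lists chosen with earlier results of these data known, did not all move this way. The list counts here and below stand beside 27.3% of all tested genes called higher and 25.7% called lower. Of 6 other intermediate filament genes tested, 1 was called higher and 2 lower (median log2 fold change -0.08). The lamin gene LMNA rose (0.95 ± 0.13 SE, adjusted p = 0.000231, edgeR), LMNB1 fell (-0.36 ± 0.06, adjusted p = 0.000491, edgeR) and vimentin, VIM, a filament of precursor and mesenchymal cells, fell (-0.31 ± 0.09, adjusted p = 0.0116, edgeR). Nestin, NES, a filament of neural precursors, was at -0.16 on this scale and did not pass the test (adjusted p = 0.311, edgeR). Of 11 tubulin genes, 3 were higher and 5 lower (median -0.11). TUBA1A, a neuronal alpha-tubulin, rose by 0.50 ± 0.06 (SE, adjusted p = 5.49e-05, edgeR), while TUBA1B and TUBA1C, broadly expressed forms with closely similar sequences, fell, at -0.52 and -0.60 (adjusted p = 6.49e-05 and 0.000135, edgeR). TUBB4A had at most 2 counts in an EGFP library and 59 to 104 in OmoMYC libraries, at least 18.7-fold higher taking a floor of 3 counts per library. TUBB3, the neuronal beta-tubulin, narrowly missed the threshold at 0.30 (adjusted p = 0.0589, edgeR), although its libraries did not overlap, by a small margin.

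Of 24 other microtubule-associated protein genes, 9 were higher and 0 lower (median log2 fold change 0.17), where 27.3% and 25.7% of all tested genes were. The higher genes included CAMSAP3, which binds microtubule minus ends (2.28 ± 0.25 SE, adjusted p = 4.92e-05, edgeR), and TPPP3 (2.01 ± 0.11 SE, adjusted p = 2.77e-07, edgeR). MAP1B, a major microtubule-associated protein of young axons, averaged 2773 CPM in EGFP and 2946 CPM in OmoMYC cells and did not pass the test (adjusted p = 0.204, edgeR). Its OmoMYC libraries were all above its EGFP libraries, as for 32% of all tested genes. The other stathmins split: STMN4 (2.39) and STMN3 (0.78) rose and STMN1, abundant in dividing cells, fell (-0.56 ± 0.07 SE, adjusted p = 8.96e-05, edgeR). Of 11 spectrin, ankyrin and linker genes 9 were higher and 0 lower (median 0.60), with ANK3, the organiser of the axon initial segment, at 2.50 ± 0.07 (SE, adjusted p = 2.43e-09, edgeR) and its partner NFASC at 1.20 ± 0.09 (SE, adjusted p = 2.95e-06, edgeR). Of 14 genes of kinases and kinase activators acting on tau and neurofilaments 8 were higher and 0 lower (median 0.26), the tau kinase gene TTBK1 most (2.38 ± 0.17 SE), followed by MAPK10 (1.23 ± 0.07 SE).

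Of 18 other growth cone and neurite genes, 4 were higher and 1 lower (median 0.08), where 27.3% and 25.7% of all tested genes were. MARCKSL1 (0.55 ± 0.10 SE) and DPYSL2 (0.50 ± 0.06 SE) rose, and ENAH, an actin regulator, fell (-0.21 ± 0.06 SE, adjusted p = 0.0106, edgeR). BASP1, a membrane protein of the same kind as GAP43, was at 0.15 (adjusted p = 0.127, edgeR) and DPYSL3 at -0.10 (adjusted p = 0.202, edgeR), neither passing the test. The groups overlapped for BASP1, while all OmoMYC libraries of DPYSL3 were below its EGFP libraries, as for 30.3% of all tested genes. Of 7 neuronal RNA-binding protein genes 3 were higher and 1 lower, with NOVA2 at 0.53 and ELAVL3 at 0.37 against RBFOX3 at -0.30.

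**Figure D4:**
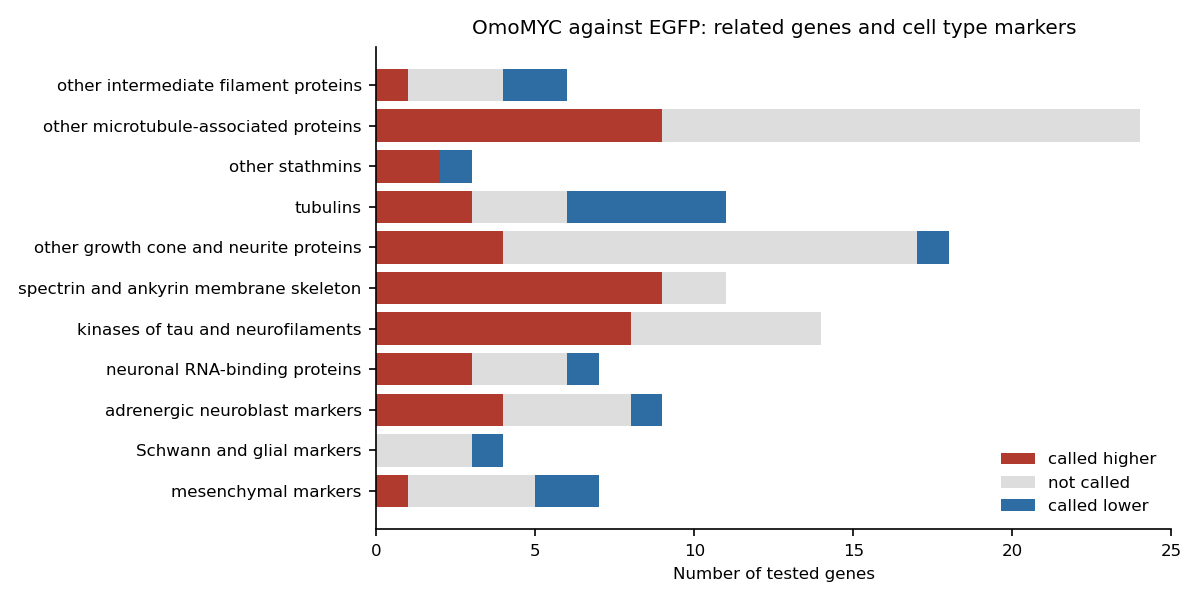
Number of tested genes called higher, called lower or not called in OmoMYC against EGFP cells for each list of related genes and cell type markers (horizontal axis, number of genes). Spectrin and ankyrin genes have 9 of 11 called higher, other microtubule-associated protein genes 9 of 24 and tubulins 3 of 11, where 5 are called lower. Of all 13803 tested genes 27.3% are called higher and 25.7% lower.

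Markers of the line's own class and of other cell types were read beside these genes, where 27.3% of all tested genes were called higher and 25.7% lower. Of the 9 adrenergic markers 1 was lower and 4 were higher (median 0.09), among them TH (1.66) and DBH (1.49), which were at means of only 0.769 and 1.16 CPM in OmoMYC cells. Of 4 tested Schwann and glial markers 0 were higher and FABP7 was lower (-0.89), with S100B and MBP among those below the filter and the summed list at 14.7 to 15.9 CPM in EGFP and 10.6 to 13.0 CPM in OmoMYC libraries. Of 7 mesenchymal markers COL1A1 was higher (0.57) and YAP1 (-1.10) and COL1A2 (-1.02) were lower, with the sum at 97.4 to 107 CPM in EGFP and 86.3 to 96.1 CPM in OmoMYC libraries. Their part in the changes above was not tested.

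The EGFP cells were themselves low in these genes beside parental cells. On a scale set jointly over the 14 libraries, all 9 genes had every EGFP library below every DMSO library, where 23.4% of the 13424 genes tested in both tables did and 24.9% had every EGFP library above. The difference of EGFP from DMSO was -1.98 for MAPT, -1.53 for DCX, -1.22 for NEFM and -1.16 for GAP43 in log2 units, and smaller for PRPH (-0.63), STMN2 (-0.57), INA (-0.39), MAP2 (-0.29) and NEFH (-0.29). Levels in OmoMYC cells lay between EGFP and DMSO with no overlap for DCX, STMN2, NEFM, GAP43 and MAPT, which 1.8% of genes did. MAP2 and PRPH in OmoMYC cells were above DMSO by 0.94 and 0.47, INA differed by 0.02 with overlapping libraries, and MAPT stayed below, at -0.76. Some of these separations depend on the scale. For NEFH the joint margin was narrow, at most 225 CPM in EGFP and at least 227 CPM in DMSO libraries. With each table scaled on its own, NEFH overlapped (183 to 229 CPM in EGFP, 220 to 250 CPM in DMSO). STMN2 then overlapped as well (405 to 440 CPM in OmoMYC, 423 to 446 CPM in DMSO), and INA did not (208 to 211 and 191 to 198 CPM). Engineered and parental cells differed in line, serum, doxycycline and time, which cannot be told apart, and no test was made.

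**Figure D5:**
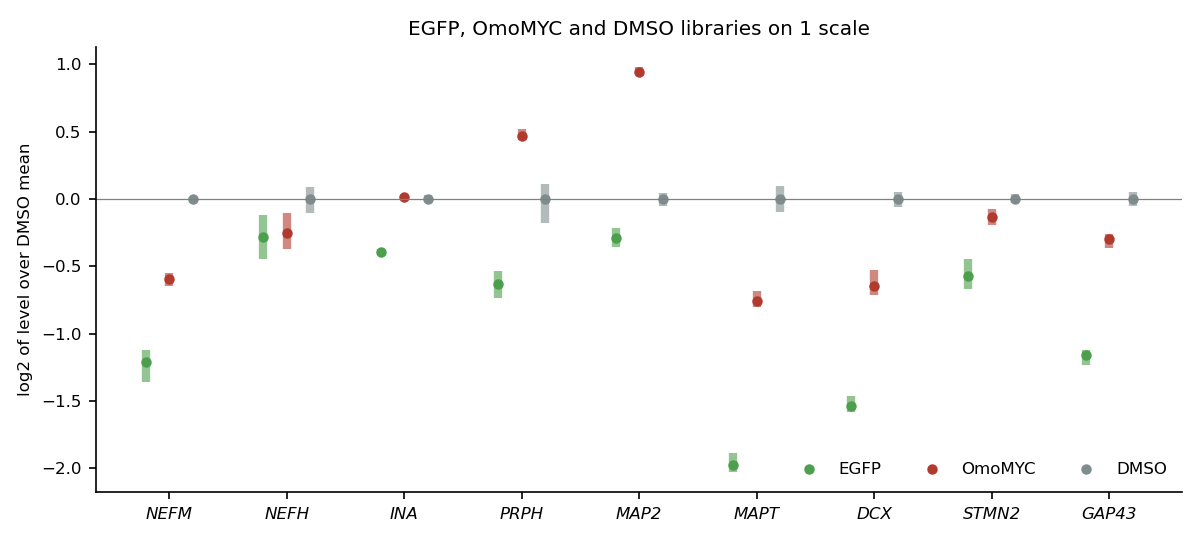
Level of each gene in EGFP, OmoMYC and DMSO cells over the DMSO mean (vertical axis, log2 units), scaled over all 14 libraries, with points at group means and bars from the lowest to the highest library. EGFP points are all below 0, from -1.98 for MAPT to -0.29 for NEFH, and OmoMYC points run from -0.76 for MAPT to 0.94 for MAP2.

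Per kilobase of exon, STMN2 was the highest of the 9 genes in every group (150 ± 12.8 CPM per kb, SD, n = 3, in EGFP and 212 ± 5.11, SD, n = 4, in DMSO cells) and MAPT the lowest (2.34 ± 0.130 and 8.76 ± 0.504). NEFH (53.6 ± 6.06) and INA (47.6 ± 0.549) followed STMN2 in EGFP cells, where the lowest NEFH library was barely above the highest INA library. In OmoMYC cells MAP2 (70.9 ± 1.28) moved above INA (64.4 ± 0.446) and NEFH (55.9 ± 5.40). Lengths are the union of all annotated exons, 18400 bases for MAPT, which lowers the values of genes with many alternative exons.

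In parental cells, dTAG47 changed none of the 9 genes by the test (0 of 9 with edgeR, 1 of 9 at an unadjusted p under 0.05 and 0 of 9 with DESeq2), where 0.159% of 14470 genes were called (0.117% higher, 0.0415% lower) and 7.28% had an unadjusted p under 0.05. That gene was GAP43, at 52.0, 54.5, 55.1 and 53.2 CPM in DMSO libraries and at 60.6, 55.4, 58.6 and 59.6 CPM in dTAG47 libraries. The difference was 0.12 log2 units (95% interval 0.03 to 0.22, unadjusted p = 0.0152 and adjusted p = 0.673, edgeR). The libraries did not overlap, by a small margin between the highest DMSO and the lowest dTAG47 library, as for 1.87% of all genes in this direction and 1.47% in the other. With a factor for replicates 1 and 2 against 3 and 4, a split that the labels do not name, GAP43 passed the test at the same size (0.12, adjusted p = 0.0356, edgeR), where 5.49% of genes did, 2.58% higher and 2.9% lower. The difference was 0.13 log2 units within replicates 1 and 2 alone (adjusted p = 0.709, edgeR) and 0.12 within replicates 3 and 4 alone (adjusted p = 0.0708, edgeR).

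The other 8 genes had log2 fold changes between -0.05 (MAP2) and 0.07 (PRPH), and over the 8 genes the 95% intervals reached from -0.14 (MAP2) to 0.20 (PRPH). MAP2 was at 422, 422, 390 and 396 CPM in DMSO libraries and at 399, 425, 387 and 369 CPM in dTAG47 libraries, and these overlapped. NEFM was at 120 to 123 CPM in DMSO and at 121 to 123 CPM in dTAG47 libraries, the narrowest spread of the set. STMN2 was at 435, 446, 426 and 423 CPM in DMSO libraries and at 463, 444, 443 and 442 CPM in dTAG47 libraries, also overlapping (0.05, adjusted p = 0.711, edgeR). INA ranged from 191 to 198 CPM in DMSO and from 190 to 204 CPM in dTAG47 libraries, PRPH from 87.8 to 107 and from 94.7 to 110, and DCX from 285 to 313 and from 291 to 311. NEFH ranged from 220 to 250 CPM in DMSO and from 209 to 251 CPM in dTAG47 libraries and MAPT from 152 to 172 and from 154 to 176. For each of these genes the groups overlapped.

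Within each parental group, MAPT and NEFH were higher in replicates 3 and 4 than in 1 and 2, by 0.13 and 0.12 log2 units in DMSO and by 0.16 and 0.15 in dTAG47 libraries, and MAP2 was lower by 0.10 and 0.12. PRPH was higher by 0.15 in DMSO and 0.09 in dTAG47 libraries, and DCX lower by 0.10 and 0.03. The shifts of MAPT, NEFH and MAP2 were larger than any dTAG47 difference of these 3 genes. In the main edgeR test, none of the cytoskeletal, kinase, growth cone and RNA-binding lists had a gene called with dTAG47. Nor did the adrenergic and mesenchymal markers. Of 5 tested Schwann and glial markers 1 was called higher (median log2 fold change 0.35), with the summed list at 19.1 to 20.3 CPM in DMSO and 22.3 to 23.8 CPM in dTAG47 libraries, and its part in the values above was not tested. NES had every dTAG47 library below every DMSO library but did not pass the test (-0.15, adjusted p = 0.502, edgeR).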

How the data were processed

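RNA depleted of ribosomal RNA was sequenced in 14 CHP134 libraries: 3 EGFP, 3 OmoMYC, 4 DMSO and 4 dTAG47. Cutadapt was used by the authors for trimming, STAR for alignment to the hg19 genome and featureCounts for assigning reads to genes, and 1 table of raw counts was deposited for each experiment. Tool versions, the gene annotation and the strand setting are not given in the sources used here. Groups came from the sample titles and treatments.

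Each table was tested on its own, since the experiments were counted separately, in R 4.3.3 with edgeR 4.0.16 (filterByExpr, TMM factors, robust quasi-likelihood F test, Benjamini-Hochberg adjusted p under 0.05). Counts-per-million values used TMM-scaled totals, and a prior count of 2 entered log2 levels. Total counts were 28060817 to 53451641 per library, and the common biological coefficient of variation was 0.0838 in the engineered and 0.0564 in the parental cells. Shares of filament transcripts were tested by exact permutation. Alternatives were DESeq2 1.42.0, limma-voom (limma 3.58.1), RLE, upper quartile and plain library totals, omitting the filter, a minimum of 10 counts in all libraries, a replicate block, a factor for replicates 1 and 2 against 3 and 4, and each library left out. Added after seeing the data were the correction for GC content, exon length and span, the joint scaling over 14 libraries, and the parental replicates in pairs. The statistical script was tested on simulated counts.

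Loci, lengths and GC content came from GENCODE v44 lifted to GRCh37, found for 97.8% and 98.1% of genes. The genes lie at 8:24771271-24776611 (NEFM), 22:29876207-29887379 (NEFH), 10:105036895-105050103 (INA), 12:49688930-49692469 (PRPH), 2:210288771-210598871 (MAP2), 17:43971893-44105700 (MAPT), X:110537007-110655657 (DCX, minus strand), 8:80523352-80578393 (STMN2) and 3:115342357-115440337 (GAP43), the others on the plus strand. Symbols with more than 1 identifier (2 and 1 list genes) were read at the identifier with most counts.

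Named in the text were all members, MYC and MYCN, the called genes with the largest change of each list (up to 2 each way), TUBB3, VIM, NES, STMN1, MAP1B, BASP1 and DPYSL3 whatever their values, and the 2 genes most correlated with each member. Members and lists were chosen with earlier results of these data known. Single results of some marker genes are not reported here.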

Additional observations from a re-analysis of the deposited data

Results flagged for a closer look

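In 18 groups of 4 parental libraries, 1 for each gene and treatment, a single library stood far from the other 3 in 2 cases. For INA in DMSO cells, replicate 2 was the highest library and its gap to the next was 0.867 of the range of the group. For STMN2 in dTAG47 cells, replicate 1 was the highest and its gap was 0.894 of the range. Both passed Dixon's critical value for 4 libraries, and chance marks about 1 in 20 groups. Neither gene passed the test between DMSO and dTAG47.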

How the results depend on the processing

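For OmoMYC against EGFP, 132 of 135 recomputed member results kept their direction and side of the threshold, and 8 members were higher each time a library was left out (all genes 2698 to 4065 higher and 2842 to 4184 lower). The exceptions were NEFH, at -0.03 without EGFP replicate 1 and -0.0517 without OmoMYC replicate 3 (to 0.12 without 1 library in all) and -0.19 with the gene feature correction, which made 1 member lower. For dTAG47 against DMSO, 165 kept both, 2 (GAP43) passed the test and 13 changed sign near 0: DCX at -0.0046 with library totals, -0.0187 in replicates 1 and 2 alone and -0.0181 to 0.0257 without 1 library, MAP2 at 0.00089 and NEFM at -0.0326 with the feature correction, NEFM at -0.0072 with library totals and -0.0053 to 0.0096 without 1 library, NEFH at -0.0537 to 0.0320 and MAPT at -0.0014 to 0.0672 without 1 library. The cause was not tested. Counts of called genes in the lists and markers were recomputed as well. With OmoMYC 277 stayed the same or close and 31 moved, and with dTAG47 359 stayed and 15 moved.

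All-gene counts with dTAG47, 17 higher and 6 lower, were 44 and 15 with DESeq2, 11 higher with library totals, 95 and 37 with the feature correction, 374 and 420 with the factor for replicates 1 and 2 against 3 and 4 (1 member higher), 4 and 3 in replicates 1 and 2 alone, 426 and 470 in 3 and 4 alone, and 4 to 52 and 2 to 32 without 1 library (52 and 32 without dTAG47 replicate 2).

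Same-numbered libraries deviated together in part (correlation -0.099 to 0.433 with OmoMYC, 0.090 to 0.380 with dTAG47). Differently numbered parental libraries did so too, at 0.454 for DMSO replicate 1 with dTAG47 replicate 2. The value was 0.392 for DMSO replicate 3 with dTAG47 replicate 4. All parental pairs across replicates 1 and 2 and replicates 3 and 4 were negative, down to -0.428. The numbers were not taken as pairs, and the main dTAG47 test had no factor for this split. With the replicate block, dTAG47 counts were 306 and 362, with GAP43 higher (0.12, adjusted p = 0.0488, edgeR), and OmoMYC counts 4233 and 3867 with 8 members higher. With 4 libraries per group, 95% intervals of the dTAG47 differences reached from -0.14 to 0.22 log2 units.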
